A study of Homo sapiens with 8 samples.

Results

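Introns of at most 150 nucleotides that cells either spliced out or kept were followed across 4 groups of a human T cell line. They are the introns for which the authors' deposited tables offered exactly 2 outcomes, 1 splice junction and the retained intron, so that a single share describes each of them. The rule kept local splicing variations (LSVs, the sets of junctions and introns that leave or enter the same exon) with 2 values, an intron as the last of them and an intron length from start to end of at most 150 nucleotides. LSVs of the same gene ID and intron were averaged. It found 8182 introns in 4098 genes, which were 80.2% of the 10206 simple retained introns of any length. They came from 11658 LSVs of 91480 in unstimulated cells and from 11900 of 91729 in PMA-treated cells. Of the 8182, 7657 were listed in unstimulated cells, 7817 in PMA-treated cells and 7292 in both.

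The source was polyadenylated RNA of JSL1, a monoclonal line obtained from the T cell leukaemia line Jurkat. The unstimulated control and unstimulated shCELF2 cells received no PMA, and the stimulated control and stimulated shCELF2 cells received 20 ng/mL of the phorbol ester PMA, which switches on protein kinase C, for 48 hours. The shCELF2 cells held integrated hairpins, inducible with doxycycline, that target CELF2, a splicing regulator whose targets in T cells the study set out to find. Each group had 2 libraries, which the authors combined into 1 value, so no spread between libraries can be given, and depth per intron is not in the tables. The sources used here do not say if the controls were given doxycycline or a hairpin of their own, and the part of either in a difference between control and depleted cells cannot be told apart from that of CELF2. The tables hold no expression values, so the depletion itself is not measured here. As these are bulk samples, a shift in the mix of cells and a change within each cell cannot be told apart. Genes with LSVs included 7 of 10 T cell markers (CD3E, CD3G, CD247, LCK, ZAP70, LAT and CD5), 1 of 5 B cell markers (CD79A), and none of 5 myeloid, 4 epithelial and 3 erythroid markers.

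Intron retention leaves an intron in an otherwise spliced and polyadenylated messenger RNA. Such transcripts are often held in the nucleus or, when they reach ribosomes and contain a premature stop codon, broken down by nonsense-mediated decay, so retention can lower the output of a gene without a change in its transcription. Short introns are recognised by pairing of the splice sites across the intron itself, and they are common in GC-rich, gene-dense parts of the genome. CELF proteins bind UGU-rich RNA, and CELF2 changes splicing in T cells when they are stimulated. Very short annotated or de novo introns can also be deletions, alignment gaps or coding sequence that is rarely removed, and the tables do not separate these from introns that are spliced.

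The introns were 18 to 150 nucleotides long, with a median of 92 and quartiles of 78 and 116 nucleotides. Chromosome 19 held 916 of them (11.2%), chromosome 17 held 787 and chromosome 1 held 735. A single short intron was listed in 2276 of the 4098 genes and 5 or more in 323, with 17 in FLNA, which encodes the actin cross-linker filamin A. At 244 positions the same intron was listed under more than 1 gene ID.

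Sequences of introns on which the results below turn are shown to let their splice sites and composition be compared. The tables use hg19, of which no genome sequence was used here. Introns were therefore found in GENCODE v29 transcripts on GRCh38 by gene ID, a length that occurred once in the gene and the length of a flanking exon, and were read from an annotated transcript that retains them. Of the 8182 introns, 4765 had such a match and 1556 (19.0%) a sequence. That is too few to compare the composition of changed and unchanged introns, and that check is void. Of the 1556 sequences, 1492 (95.9%) began with GT and ended with AG, 47 began with GC and ended with AG, and 2 began with AT and ended with AC. Their median GC content was 60.6%, with quartiles of 50% and 67.4%. The triplet TGT, the DNA form of the UGU that CELF proteins bind, occurred in 75.8% of them and its reverse complement ACA in 61.2%. The 9 introns below lie between coding exons, are given 5′ to 3′ on the strand of the gene, and have the first and last 2 bases and each TGT in capitals. With depletion, retention rose in both states in PSMC3IP and in PMA-treated cells in TSC2, DGKZ, PNPLA7, HNRNPL and SCNN1D. It fell without PMA in NPEPPS and with PMA in NOL8 and GTPBP3.
PSMC3IP, 91 nucleotides, chr17:42577562-42577652, minus strand: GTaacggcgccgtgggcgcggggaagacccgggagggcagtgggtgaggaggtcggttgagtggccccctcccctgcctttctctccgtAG
TSC2, 139 nucleotides, chr16:2060814-2060952, plus strand: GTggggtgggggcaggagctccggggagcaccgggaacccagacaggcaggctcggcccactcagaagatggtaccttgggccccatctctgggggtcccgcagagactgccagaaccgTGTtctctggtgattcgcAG
DGKZ, 93 nucleotides, chr11:46372678-46372770, plus strand: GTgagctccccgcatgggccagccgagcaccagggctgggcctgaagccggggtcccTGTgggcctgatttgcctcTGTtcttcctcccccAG
PNPLA7, 137 nucleotides, chr9:137462042-137462178, minus strand: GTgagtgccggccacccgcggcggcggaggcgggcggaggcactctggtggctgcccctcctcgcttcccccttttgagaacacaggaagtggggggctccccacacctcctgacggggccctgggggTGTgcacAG
HNRNPL, 111 nucleotides, chr19:38840377-38840487, minus strand: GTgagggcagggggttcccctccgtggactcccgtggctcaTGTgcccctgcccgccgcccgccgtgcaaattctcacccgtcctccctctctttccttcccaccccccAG
SCNN1D, 76 nucleotides, chr1:1287597-1287672, plus strand: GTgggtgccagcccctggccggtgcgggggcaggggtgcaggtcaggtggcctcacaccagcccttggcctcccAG
NPEPPS, 113 nucleotides, chr17:47619165-47619277, plus strand: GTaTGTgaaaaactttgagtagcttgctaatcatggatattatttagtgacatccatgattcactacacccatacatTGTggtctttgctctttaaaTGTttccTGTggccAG
NOL8, 89 nucleotides, chr9:92323352-92323440, minus strand: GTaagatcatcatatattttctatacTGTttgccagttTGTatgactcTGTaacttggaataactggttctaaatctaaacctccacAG
GTPBP3, 96 nucleotides, chr19:17339027-17339122, plus strand: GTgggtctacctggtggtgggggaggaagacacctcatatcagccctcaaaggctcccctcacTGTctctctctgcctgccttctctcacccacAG

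In the printed introns the GC content was 33.7% in NOL8 and 37.2% in NPEPPS, 59.4% in GTPBP3, and between 66.2% in TSC2 and 75% in SCNN1D in the 6 others. TGT occurred 4 times in NPEPPS, 3 times in NOL8, 2 times in DGKZ, 1 time each in TSC2, PNPLA7, HNRNPL and GTPBP3, and not at all in PSMC3IP and SCNN1D. The 9 were picked from 17 named introns read in this way between coding exons. Among those not printed, the 76-nucleotide intron of SCART1 was called higher with PMA. Its GC content was 65.8% and it held TGT 3 times, as often as the NOL8 intron that fell. These are letters in a few introns, and nothing about binding follows from them.

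Most of the short introns were almost fully removed in every group. Retention, the share of the intron among the 2 outcomes, can only run from 2.5% to 97.5% in these tables. Over the 7292 introns listed in both states, 4140 (56.8%) stayed under 10% in all 4 groups and 1637 of these were at the lowest value of 2.5% in all 4. At the other end, 1044 (14.3%) were at 90% or more in all 4 groups and 413 at the highest value of 97.5% in all 4. Retention differed by 20 points or more between the lowest and highest group in 495 introns (6.79%).

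Across groups the distribution moved little. The median retention was 3.80% in unstimulated control cells, 4.75% in unstimulated depleted cells, 3.50% in PMA-treated control cells and 5.25% in PMA-treated depleted cells. The share of introns at 10% or more was 33.8%, 36.6%, 33.3% and 37.7% in the same order, so both depleted groups lay above both control groups. The share at 50% or more was 21.4%, 22.0%, 21.1% and 21.7%. With 1 combined value a group these differences have no replicate check.

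Retention followed length. Introns of up to 30 nucleotides (n = 248) had a median of 83.6% in unstimulated control cells, those of 31 to 45 nucleotides (n = 353) 49.5%, and those of 46 to 60 nucleotides (n = 311) 33.0%. The quartiles of these classes, in the same order, were 3.8% and 97.5%, 2.7% and 97.3%, and 2.6% and 97.4%. Retention there spread from near the lowest to near the highest value, so the medians are not typical levels. The median was 6.4% from 61 to 75 nucleotides (n = 567) and 2.90% from 76 to 90 nucleotides, the most populated class with 1946 introns. From there to 150 nucleotides the medians lay between 3% and 3.55%. Of the 912 introns of up to 60 nucleotides, 37.8% were at 90% or more in all 4 groups, against 11.0% of the 6380 longer ones. Among the former, 36.2% of those at 90% or more and 31.9% of the others had a length that is a multiple of 3.

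The 1925 simple retained introns over 150 nucleotides that were listed in both states had medians between 94.5% and 96.4%. Right at the boundary there was no such step: the 39 introns of 150 nucleotides had a median of 2.90% in unstimulated control cells and the 45 introns of 151 nucleotides a median of 2.80%.

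**Figure D1:**
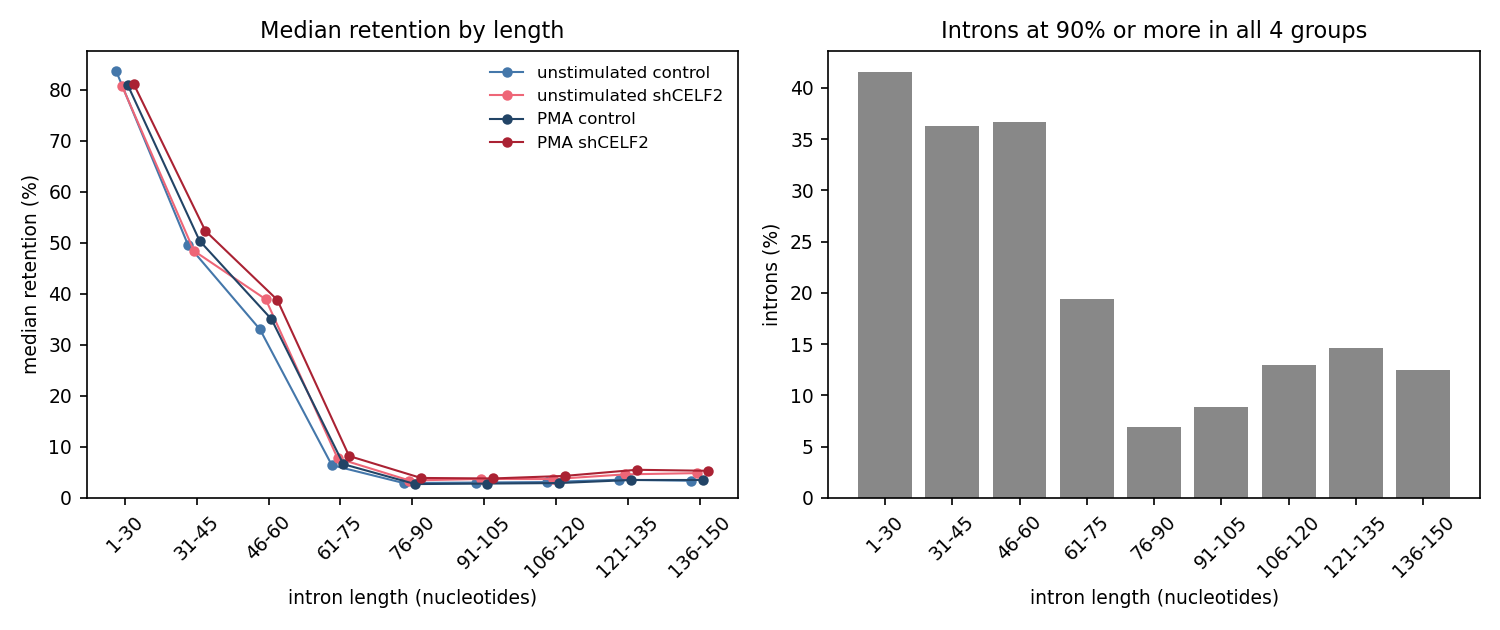
Retention of the 7292 short introns listed in both states, by length class in nucleotides (x axes): left, the median retention in % of each group (1 line per group); right, the percent of introns at 90% or more in all 4 groups. The lines of the 4 groups lie close together, falling from medians above 80% up to 30 nucleotides to under 6% from 76 nucleotides on.

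Individual introns illustrate both ends and the steady middle. CIRBP, which encodes a cold-inducible RNA-binding protein, MRPL28, a mitochondrial ribosomal protein, and DECR2, a peroxisomal enzyme of fatty acid breakdown, each had an intron (113, 117 and 56 nucleotides) at 97.5% in all 4 groups. Between 20% and 80%, 662 introns had a mean in that range and only 17 of them varied by under 5 points. A 50-nucleotide intron of GTPBP3, which modifies mitochondrial transfer RNA, was retained at 61.7%, 60.6%, 61.4% and 59.4%, giving the groups in the order unstimulated control, unstimulated depleted, PMA-treated control and PMA-treated depleted. A 56-nucleotide intron of RAB24, a small GTPase linked to autophagy, stood at 25.6%, 27.5%, 27.9% and 27.3%. In these 2 introns neither PMA nor depletion moved retention by more than 2.30 points.

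In unstimulated cells, depletion of CELF2 went with a change in 83 short introns, and most of these were retained more. An intron counted as called where the authors' deposited table gave any of its LSVs a posterior probability of 0.95 or more that the change reached 20 percentage points. The 83 were 1.08% of the 7657 introns. By LSV, 94 of 11658 (0.806%) were called, while over all LSVs of every kind the share called was 0.985%. Retention rose in 58 introns of 48 genes and fell in 25 introns of 20 genes, so 69.9% of the calls were higher. Some introns that rose were listed under more than 1 gene ID. Counted once per position, 55 rose and 25 fell. The 2 directions did not have equal room. Over the introns listed in both states the upper quartile in unstimulated control cells was 25.7%, and the scale starts at 2.5%. Most short introns could therefore hardly fall by 20 points, and the counts were not corrected for this. Among the introns of all LSVs with an intron, 0.574% were called higher and 0.327% lower. These 2 shares are counted by LSV and include the short introns, while the 58 and 25 are counted by intron. Of the calls, 38 rested on 1 LSV, and of the 45 with 2 LSVs both were called in 11, with 18 in which the other LSV had a posterior probability under 0.5.

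The starting levels of the called introns are partly set by the call itself. An intron near the top of the scale cannot rise by 20 points, and one near the bottom cannot fall by as much. The median retention of the introns that rose was 20.5% in control and 51.7% in depleted cells, 17 of the 58 were under 10% in control cells, and 20 crossed 50%. Those that fell had a median of 88.0% in control and 51.4% in depleted cells. The median lengths were 97.5 nucleotides for the introns that rose and 113 for those that fell. Introns of up to 60 nucleotides gave 3 higher and 2 lower calls of 990, and those of 61 to 150 nucleotides 55 and 23 of 6667.

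The highest expected increase was in an 84-nucleotide intron that lies in both LRCH4 and SAP25 and was listed under both, so that its reads cannot be assigned to either. LRCH4 encodes a leucine-rich repeat membrane protein and SAP25 a subunit of the SIN3 corepressor complex. Its retention was 25.2% in control and 86.4% in depleted cells. MMS19, an iron-sulfur cluster delivery factor for DNA repair enzymes, had a 97-nucleotide intron at 22.6% and 77.3%. In PGPEP1, which encodes a peptidase, a 148-nucleotide intron stood at 15.2% and 65.7%. The PSMC3IP intron printed above, in a gene for a recombination factor, stood at 37.7% and 78.3%. Each of these 4 introns went from a minority to a majority outcome. A 144-nucleotide intron of TMC8, a gene linked to immunity to papillomaviruses, was at the lowest value of 2.5% in control cells and at 40.6% in depleted cells. The unstimulated values of the LRCH4 and SAP25, MMS19, PGPEP1, PSMC3IP and TMC8 introns each rested on 1 LSV.

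Among the largest decreases, GNG5, a G protein gamma subunit, had a 134-nucleotide intron that fell from 93.9% to 38.5%. The NPEPPS intron printed above, in the gene of the puromycin-sensitive aminopeptidase, fell from 93.1% to 53.2%. RPL23A, a protein of the large ribosomal subunit, had a 138-nucleotide intron at 70.4% and 32.8%, and RPS15, of the small subunit, a 117-nucleotide intron at 87.6% and 58.8%. The unstimulated values of the GNG5, NPEPPS, RPL23A and RPS15 introns each rested on 1 LSV. RPL23A and RPS15 have many processed pseudogenes, and how reads shared with them were counted is not given.

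In PMA-treated cells 162 short introns were called, 2.07% of 7817. By LSV this was 184 of 11900 (1.55%), while 1.87% of all LSVs were called in this state. Retention rose in 115 introns of 102 genes and fell in 47 introns of 45 genes, so 71.0% of the calls were higher. Some introns that rose were listed under more than 1 gene ID. Counted once per position, 107 rose and 47 fell. Here too most short introns had little room to fall, with an upper quartile of 25.1% in PMA-treated control cells. Among the introns of all LSVs with an intron, again counted by LSV and with the short introns included, 0.945% were called higher and 0.662% lower. Of the 162, 81 rested on 1 LSV. Of the 81 with 2 LSVs, both were called in 22, and in 31 the other LSV had a posterior probability under 0.5. The introns that rose had a median of 19.9% in control and 56.0% in depleted cells, with 35 under 10% in control cells and 54 that crossed 50%. Those that fell had medians of 77.1% and 31.8%, and 25 of the 47 crossed 50% downwards.

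**Figure D2:**
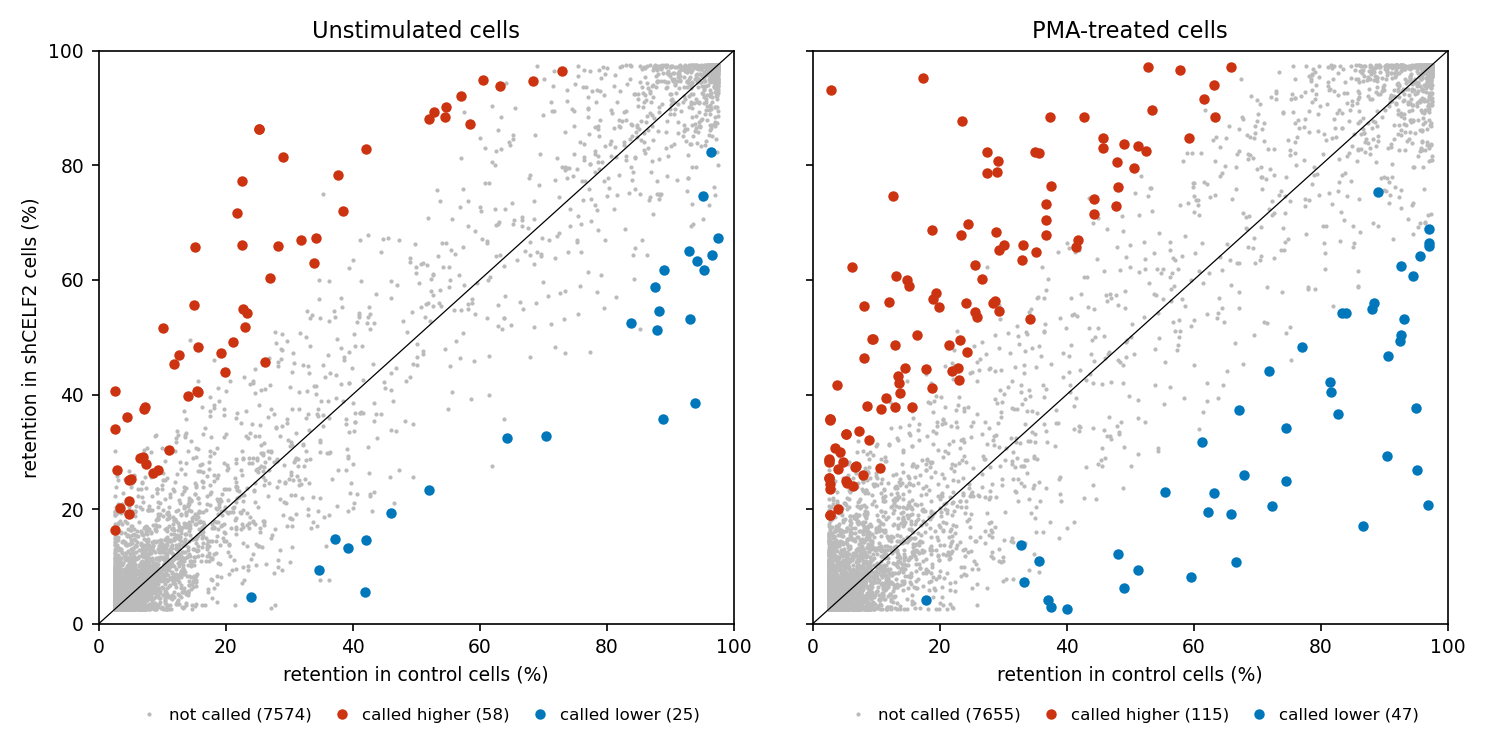
Retention in % in control cells (x axis) and CELF2-depleted cells (y axis) for each short intron, without PMA (left) and with PMA (right); each point is 1 intron, red points were called higher and blue points lower, and the line marks equal retention. Most called introns lie above the line, 58 against 25 below it without PMA and 115 against 47 with PMA.

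Among the largest increases in PMA-treated cells, NOXO1, the organiser of an NADPH oxidase, had a 93-nucleotide intron at 2.90% in control and 93.1% in depleted cells, nearly the whole range of the scale. The TSC2 intron printed above, in the gene of the tumour suppressor tuberin that restrains mTORC1, stood at 23.5% and 87.7%. The DGKZ intron, in the gene of the diacylglycerol kinase that ends diacylglycerol signalling after T cell receptor engagement, stood at 6.20% and 62.2%. PNPLA7, a lysophospholipase, had its intron at 27.4% and 82.3%, and LUC7L, a relative of a U1 snRNP component, a 66-nucleotide intron at 27.4% and 78.7%. None of these 5 was listed as a simple short intron in unstimulated cells, so no value without PMA can be set beside them. Each of the 5 rested on 1 LSV, with no second LSV of the intron to compare. FBXW7, a ubiquitin ligase subunit that targets MYC and NOTCH, was listed in both states. Its 93-nucleotide intron stood at 34.3% and 67.4% without PMA and at 29.2% and 80.7% with PMA.

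The largest decrease with PMA was in the 114-nucleotide intron of KREMEN2, a coreceptor of Wnt antagonists, which stood at 96.9% in control and 20.8% in depleted cells. It was followed by a 128-nucleotide intron of RP11-263K19.4 at 86.6% and 17.1%, and by the 93-nucleotide intron of KREMEN2 at 95.1% and 26.8%. The RP11-263K19.4 intron lies within the span of THBS3 on the other strand, a gene with 3 introns called higher with PMA. Whether the authors' counting used strand is not given, so the reads of the RP11-263K19.4 intron may belong to either gene. KLC3, a kinesin light chain, had an 82-nucleotide intron that fell in both states, from 95% to 37.7% with PMA, and without PMA from 93.0% to 65.1%. FGFR1OP2 had a 149-nucleotide intron at 90.4% and 29.3% with PMA, and at 32.8% and 40.7% without, where it was not called. NOL8, a nucleolar protein gene whose intron is printed above, stood at 72.3% and 20.5%. In PTS, a gene of tetrahydrobiopterin synthesis, a 35-nucleotide intron stood at 59.6% and 8.10% with PMA and at 11.9% and 14.7% without. In FGFR1OP2 and PTS the group that stood apart was the PMA-treated control. With PMA each of the introns named among these decreases rested on 1 LSV.

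The longer simple retained introns are the closest set for comparison. Over 150 nucleotides, 20 were called higher and 12 lower without PMA (1.63% of 1959 in all), and 18 higher and 32 lower with PMA (2.51% of 1990). Among the short introns of PMA-treated cells the calls were higher in 71.0%, and among the long ones in 36.0%. The long introns had medians near the highest value of the scale, and the difference between the sets was not tested.

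Where a gene had several called introns, they always moved the same way. Without PMA 9 genes had 2 or more called introns, 6 with all of them higher and 3 with all of them lower. With PMA there were 13 such genes, 11 higher and 2 lower. None was mixed in either state. Introns of 1 gene share its reads and regulation, so they are not independent.

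RECQL4, a DNA helicase of the RecQ family, had 4 of its 8 listed introns called without PMA. The 80-nucleotide intron stood at 10.1% in control and 51.6% in depleted cells, the 74-nucleotide intron at 15.7% and 48.3%, the 90-nucleotide intron at 7.10% and 37.5%, and the 125-nucleotide intron at 2.60% and 34.0%. With PMA the same 4 were at 15.7%, 18.1%, 6.70% and 2.75% in control cells and at 27.5%, 32.8%, 27.1% and 14.7% in depleted cells, and none was called. In the authors' deposited table the highest posterior probability among these 4 with PMA was 0.894. The 2 neighbours of 81 and 83 nucleotides stayed at or below 3.75% in all 4 groups. STAT2, the transcription factor of the type I interferon response, had 4 of 6 called without PMA. Its 83-nucleotide intron stood at 19.3% and 47.2% without PMA and at 22.3% and 47.7% with PMA, where the authors' deposited table gave it a posterior probability of 0.932 and it was not called.

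FANCA, a subunit of the Fanconi anaemia core complex, had 2 called introns without PMA and 3 of 6 with PMA. Its 73-nucleotide intron stood at 29.1% and 81.4% without PMA and at 44.4% and 71.5% with PMA. Its 35-nucleotide intron stood at 21.8% and 71.7%, and at 34.2% and 53.2%. Both lie at the end of the gene where it overlaps ZNF276 on the other strand, and whether the authors' counting used strand is not given, so their reads may belong to either gene. A 101-nucleotide intron of FANCA, listed only with PMA, stood at 52.8% and 97.1%. ANO8, a member of the anoctamin membrane protein family, had introns of 79 and 127 nucleotides called in both states, between 22.8% and 29.4% in the control groups and between 51.8% and 60.2% in the depleted groups. Its 5 other introns stayed at or below 13.9%.

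SEMA4G, a semaphorin involved in axon guidance, moved the other way. All 4 of its listed introns fell without PMA, from between 64.3% and 88.9% in control cells to between 32.5% and 52.5% in depleted cells. With PMA its introns of 138 and 83 nucleotides stood at 88.4% and 92.7% in control cells and at 56.0% and 50.4% in depleted cells, and both were called. OPLAH, an enzyme of the glutathione cycle, had 2 introns called higher with PMA. The one of 82 nucleotides stood at 13.4% and 43.2% with PMA and at 34.6% and 37.5% without, so here the low group was the PMA-treated control.

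**Figure D3:**
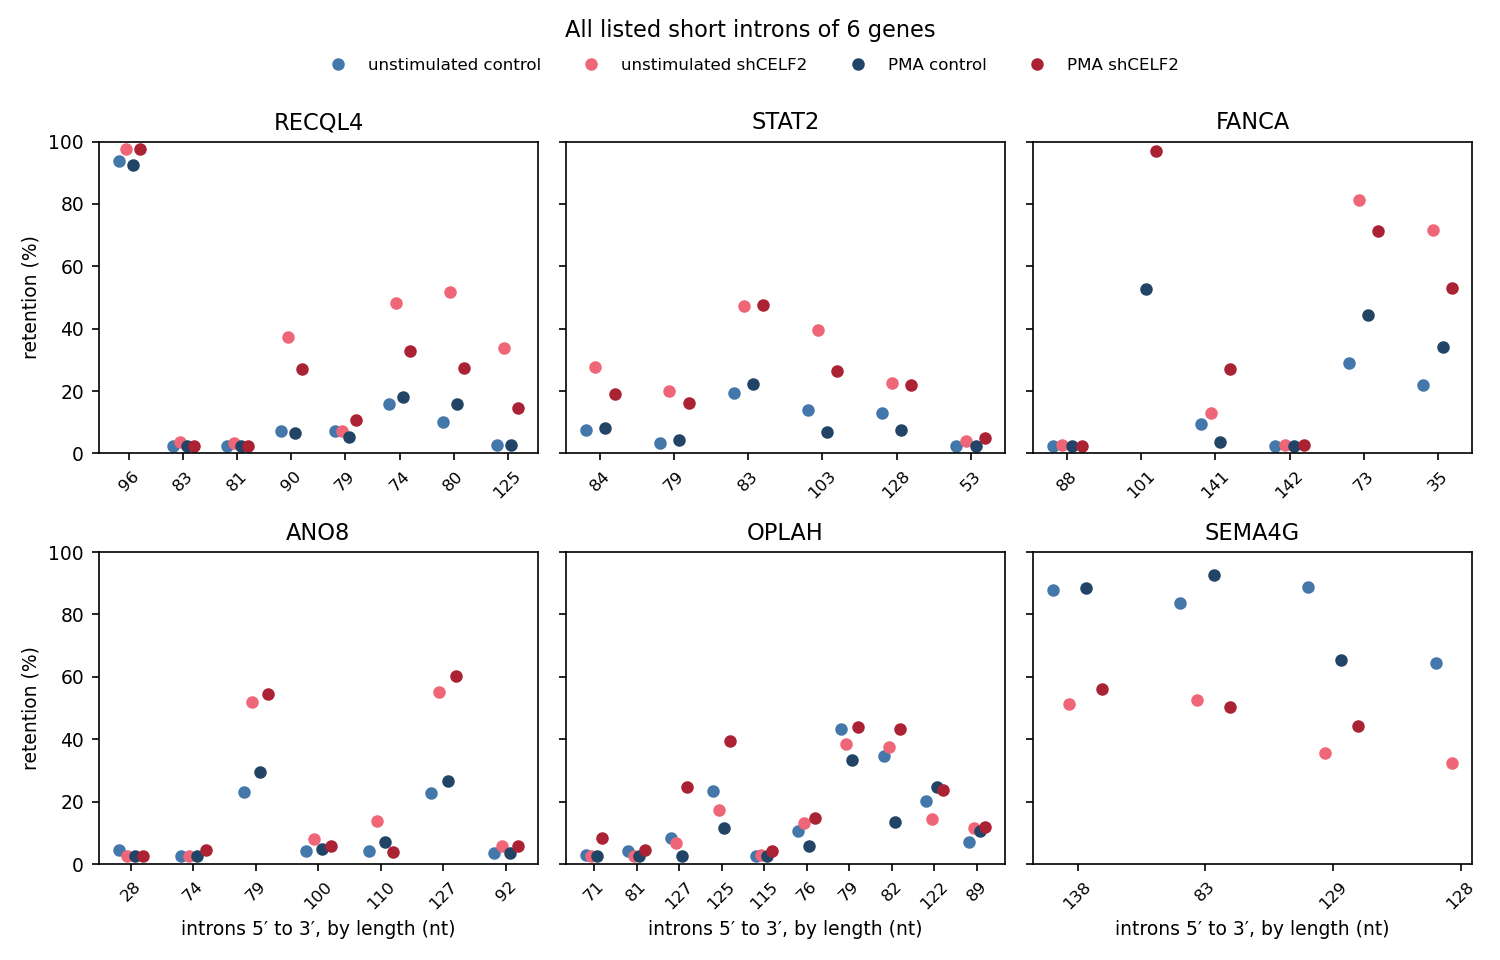
Retention in % (y axis) of every listed short intron of 6 genes, in 5′ to 3′ order and labelled by length in nucleotides (x axis); each point is the authors' combined value of 1 group. In RECQL4 and STAT2 the depleted groups lie above the control groups in the called introns, and in SEMA4G all depleted values lie below the control values of the same intron.

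The other introns of genes with a call were mostly still. In the 48 genes with an intron that rose without PMA, 103 other short introns were listed in 35 genes, with a median expected change of 0.18 points. Of these, 16 (15.5%) were higher by 10 points or more and 1 was lower by as much, while 3.41% of all short introns were higher by 10 points or more. With PMA 36 of 213 (16.9%) were higher by 10 points or more, against 5.54% of all short introns. In genes with an intron that fell, 1 of 21 other introns (4.76%) was lower by 10 points or more without PMA, against 1.29% of all short introns. With PMA 6 of 50 (12%) were, against 2.38%. The other introns are uncalled ones, while the shares of all short introns include the called ones. The other introns share genes with the calls, and the comparison carries no test.

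Introns called in both states had the same direction of change in both. The matching overlap over all LSVs was not computed, so the size of the overlap is not read further. Of the 83 and 162 calls, 18 introns were called in both, 21.7% of the former and 11.1% of the latter, 12 of them higher in both and 6 lower in both. Of the 144 called with PMA alone, 103 were listed without PMA and 77 of these had a change of the same sign. Of the 65 called without PMA alone, 54 were listed with PMA and 43 of these had the same sign. Over all 7292 introns the expected change without PMA had a Pearson r of 0.368 with that with PMA. The 2 tables share no library, but their introns share genes, and many sit at the limits of the scale.

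Among the introns called in both states, STIL, a centriole duplication factor, had a 141-nucleotide intron at 52.8% and 89.3% without PMA and at 48.0% and 80.7% with PMA. HEXA, a lysosomal hexosaminidase subunit, had a 126-nucleotide intron at 54.7% and 90.2%, and at 36.8% and 70.5%. In DNAJC7, a cochaperone, a 124-nucleotide intron stood at 52.0% and 88.1%, and at 50.6% and 79.5%. In STIL, HEXA and DNAJC7 each depleted group lay above both control groups. The calls in both states already place each depleted group above the control group of its own state. TARDBP, the RNA-binding protein TDP-43, had a 90-nucleotide intron that fell from 89.1% to 61.8% and from 83.3% to 54.3%. EME1, a subunit of a structure-specific DNA endonuclease, had a 124-nucleotide intron that fell from 42.1% to 14.6% and from 63.2% to 22.9%.

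**Figure D4:**
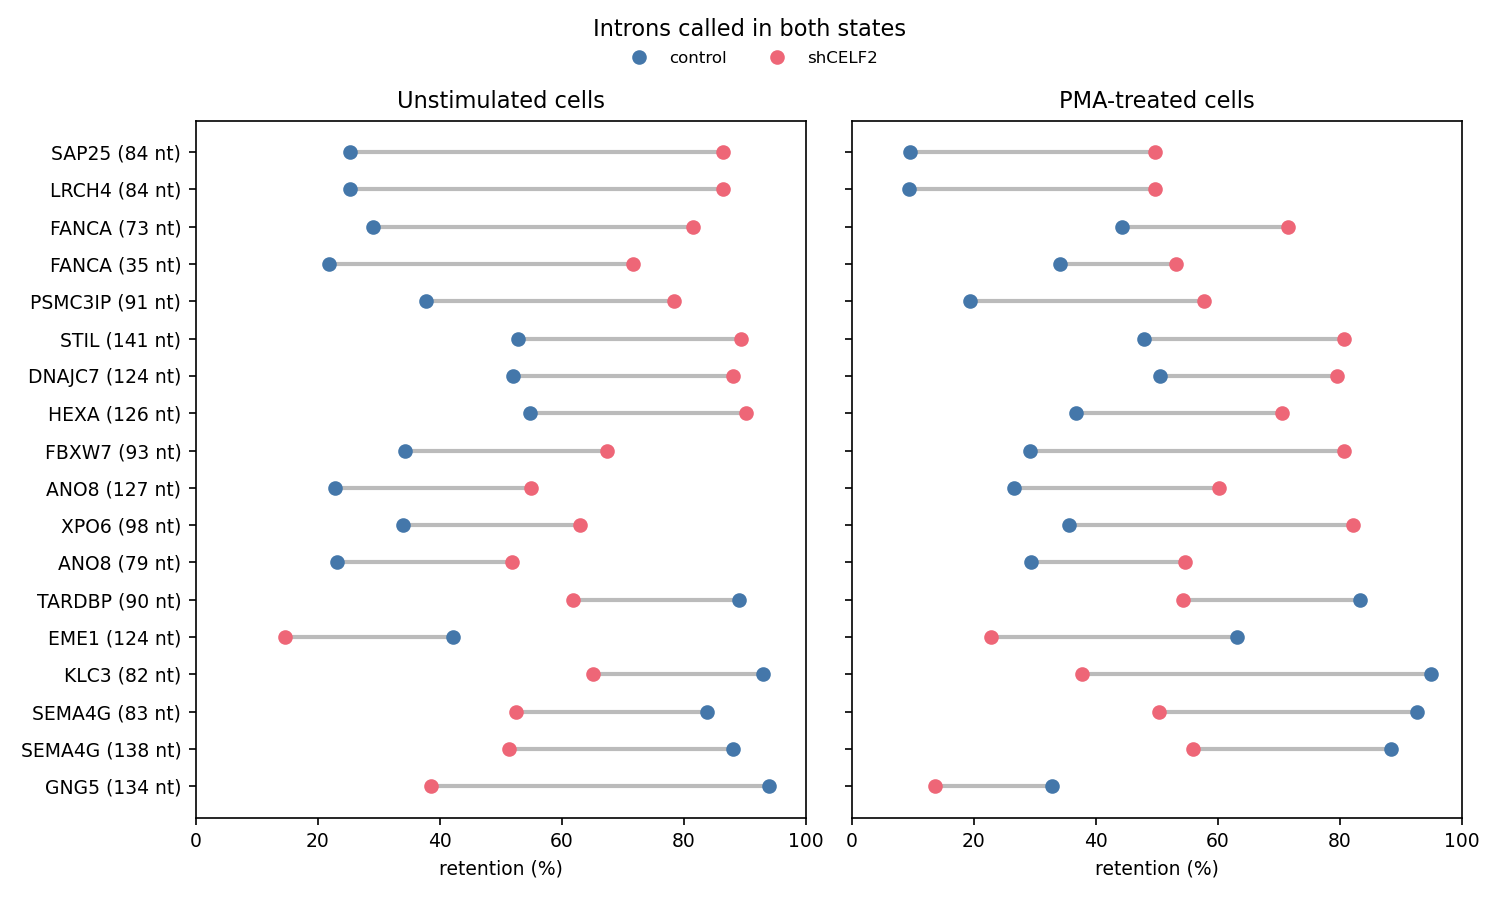
Retention in % (x axes) in control cells (blue) and CELF2-depleted cells (red) of the 18 introns called in both states, 1 line per intron with its length, without PMA (left) and with PMA (right). The upper 12 introns rose and the lower 6 fell in both states, and SAP25 and LRCH4 are the same intron under 2 gene IDs.

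PMA itself was compared by setting the values of the 2 tables side by side, which carries no test and no posterior. Where an intron had both a source and a target LSV in each table (n = 3874), the difference between the states disagreed between them with an SD of 4.09 points in control cells and 4.59 points in depleted cells, and by at most 8.94 and 9.90 points in 95% of introns. This is technical disagreement within the same libraries and holds no spread between libraries or cultures. Its median size was 0.3 points in control and 0.5 points in depleted cells. Most short introns lay near the lowest value, so introns at middle levels may disagree by more than these figures show. Differences of 20 points or more, the size used for the depletion calls, were counted. In control cells 144 of 7292 introns differed by 20 points or more, 55 higher and 89 lower with PMA. In depleted cells 118 did, 40 higher and 78 lower. Over all LSVs in both tables, 2.59% differed by 20 points or more in some junction in control cells and 1.87% in depleted cells. For the short introns the shares were 1.97% and 1.62%. Among introns of all LSVs with an intron, 0.984% were higher and 0.996% lower with PMA in control cells, and 0.661% and 1.08% in depleted cells. These shares are counted by LSV and include the short introns.

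With PMA, ITGA6, the integrin alpha 6 subunit, had its 93-nucleotide intron higher in control cells, at 10.1% without and 59.5% with PMA. In depleted cells it stood at 30.7% and 52.0%. ZNF195, a zinc finger gene, had an 86-nucleotide intron at 39.4% and 86.3% in control cells and at 62.1% and 85.5% in depleted cells. KDM1A, a histone demethylase, had an 83-nucleotide intron at 27.0% and 67.8%, and at 60.4% and 71.7%. In ITGA6, ZNF195 and KDM1A the unstimulated control was the lowest of the 4 groups. They were picked for a large rise with PMA in control cells and a rise in depleted cells, which favours this order. PRPF40B, a U1-associated splicing factor, had a 148-nucleotide intron at 36.4% and 76.1% in control and 43.8% and 80% in depleted cells, so that both PMA groups lay above both unstimulated groups. XRCC3, a homologous recombination factor, had a 115-nucleotide intron at 16.2% and 52.4%, and at 37.8% and 62.0%.

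KIF2C and SMARCC2 also met this limit, but only because different LSVs were averaged in the 2 tables. KIF2C, a kinesin that depolymerises microtubules, had a 50-nucleotide intron at 2.5% without and 48.1% with PMA in control cells, with 1 LSV listed without PMA and 2 with it. On the LSV listed in both tables the difference was 0 points in control and -0.1 points in depleted cells. SMARCC2, a chromatin remodelling subunit, likewise went from 42.5 points to 4.60 points in control cells on the LSV listed in both. With only the LSVs listed in both tables, 140 introns differed in control cells and 113 in depleted cells.

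Lower with PMA were 2 introns of VPS9D1, a gene with a guanine nucleotide exchange domain, of 105 and 77 nucleotides. In control cells they stood at 93.0% and 94.0% without and at 33.2% and 37.1% with PMA. In depleted cells they stood at 92.1% and 87.2%, and at 66.2% and 60.2%. SCART1 had a 76-nucleotide intron at 97.4% without PMA in both kinds of cells, at 37.6% with PMA in control cells and at 76.4% with PMA in depleted cells. GNG5 stood at 93.9% and 32.8% in control cells, a difference of -61.1 points that was -41 points on the LSV listed in both tables. In the VPS9D1 and SCART1 introns the PMA-treated control was the lowest group and the PMA-treated depleted cells lay between it and the unstimulated groups. They were picked for a large fall with PMA in control cells and a fall in depleted cells, which favours this order. Nothing about depletion is read from it.

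The 2 kinds of cells shared part of these introns. Of the 144, 34 also differed by 20 points or more in depleted cells, which is 23.6% of the control cells' introns and 28.8% of the depleted cells' 118, with 10 higher in both and 21 lower in both. Of the 55 higher with PMA in control cells, 35 were also higher in depleted cells, with a median of 5.6 points. Of the 89 lower with PMA, 69 were also lower in depleted cells, with a median of -10.9 points. These introns were chosen by their difference in control cells, so the sizes in the 2 kinds of cells are not compared. In 48 introns the differences had opposite signs and were 10 points or more in both, 20 of them lower with PMA in control cells and higher in depleted cells, and 28 the reverse. The matching shares over all LSVs were not computed for the 34 or the 48.

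**Figure D5:**
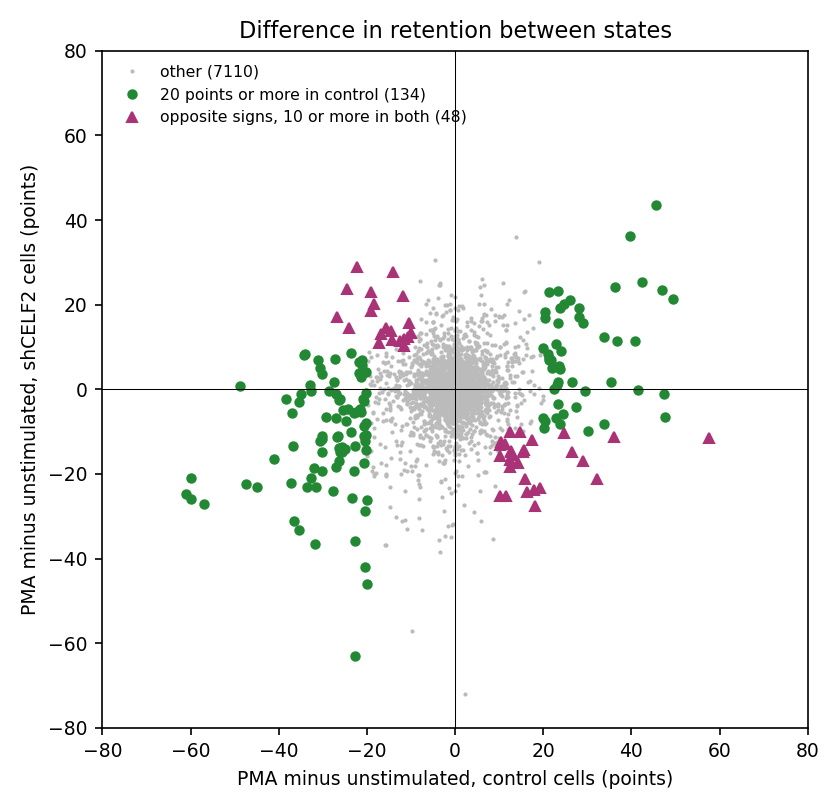
Retention with PMA minus retention without PMA, in percentage points, in control cells (x axis) and in CELF2-depleted cells (y axis); each point is 1 of the 7292 short introns, green points differed by 20 points or more in control cells, and purple triangles are the 48 introns with opposite signs. Of the 144 introns that differed by 20 points or more in control cells, 55 lie to the right and 89 to the left.

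The short introns of 14 gene lists were described by role, with the lists chosen with earlier results of these data known. The lists are read against all short introns, of which 1.08% were called without and 2.07% with PMA. Of the core spliceosome, 89 introns were listed without PMA and 91 with PMA, and none was called. Genes of RNA export, decay and end processing had 128 and 130 listed and none called. An expected change of 10 points or more, which 6.29% of all LSVs without PMA and 9.33% with PMA had in some junction, was found in 0 and 4 introns of the former list and in 1 and 6 of the latter. Over all short introns it was found in 360 of 7657 and 619 of 7817. At 89 to 130 introns a list, these counts of 0 calls lie near that background. Splicing factors and other RNA-binding proteins had 1 call of 128 without PMA (0.781%), TARDBP lower, and 3 of 126 with PMA (2.38%), and 6 and 11 introns with a change of 10 points or more, all near the background. The 3 were LUC7L and HNRNPL higher and TARDBP lower. HNRNPL, which binds CA-rich RNA and represses exons in T cells, had its printed 111-nucleotide intron at 25.4% and 34.7% without PMA and at 8.50% and 37.9% with PMA. Only in the PMA-treated control was it under 10%.

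DNA repair and replication genes had the highest share called among the lists in both states. Without PMA 8 of 135 introns rose and 2 fell (7.41%), and with PMA 6 of 139 rose and 2 fell (5.76%). The 8 were 4 introns of RECQL4, 2 of FANCA, and 1 each of MSH5, a meiotic MutS homologue, and FANCG, another Fanconi anaemia protein. The MSH5 intron shares its reads with a readthrough gene. EME1 and POLG, the mitochondrial DNA polymerase, had the 2 introns that fell. With PMA the 6 were 3 introns of FANCA, 2 of NEIL1, a DNA glycosylase of base excision repair, and 1 of MSH5. This MSH5 intron was not the one called without PMA. EME1 and APEX1, the main abasic site endonuclease, fell. So 6 of the 8 increases without PMA came from 2 genes, and the median expected change of the list's introns was 0 points in both states, as it was over all short introns.

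In the list of T cell receptor and immune signalling genes 4 of 79 introns were called without PMA (5.06%), all higher and all in STAT2, and 2 of 82 with PMA (2.44%), both in DGKZ. STAT2, although an interferon response gene, was placed in this list and not in the next, so the shares of both depend on that choice. The list of NF-kappaB, interferon and innate sensing genes had no call of 55 without PMA and 1 of 64 with PMA. The call was a 91-nucleotide intron of NFKB2, the precursor of p52, which stood at 30.3% and 26.5% without and at 8.10% and 55.4% with PMA. It rested on 1 LSV in each state. A 69-nucleotide intron of NFKB2, with 2 LSVs in each state, went the other way with PMA and was not called. It stood at 10.65% and 3.45% without and at 24.05% and 11.75% with PMA. MAPK and small GTPase signalling genes had 1 of 122 with PMA, the TSC2 intron. Chromatin and transcription genes had 1 call in each state, KDM1A without and MED12 with PMA, of 197 introns each.

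Among genes of protein synthesis, translation and ribosome genes had 2 calls of 102 without PMA, RPS15 and RPL23A, both lower, and 1 of 101 with PMA, RPL24, higher. Transfer RNA and amino acid genes had no call of 94 without PMA and 1 of 93 with PMA, the printed GTPBP3 intron, which fell from 33.2% to 7.30%. It stood at 12.7% and 14.8% without PMA. Mitochondrial and metabolic genes had none of 163 without and 5 of 169 with PMA. One was a 100-nucleotide intron of GPI, a glycolytic enzyme, at 37.6% and 2.90% with PMA and at 35.3% and 75% without, where its posterior probability in the authors' deposited table was 0.887.

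Ubiquitin, proteasome and autophagy genes had 3 calls of 183 without PMA, FBXW7 higher and 2 introns of the ubiquitin ligase gene RNF123 lower, and 1 of 191 with PMA. The 146-nucleotide intron of RNF123 stood at 52.0% and 23.4% without PMA and at 39.0% and 22.7% with PMA. Cell cycle and centrosome genes had 1 of 149 without PMA, RBL2, and none of 148 with PMA. Vesicle trafficking and cytoskeleton genes had 1 of 236 and 3 of 239, among them a 62-nucleotide intron of MYO9B, an unconventional myosin, which stood at 40.1% and 2.5% with PMA and at 22.8% and 9.90% without.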

How the data were processed

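The authors sequenced stranded polyadenylated RNA of 8 libraries, 2 in each of 4 groups, per the labels' protocols. STAR 2.5.1b and the build hg19 are named in the submitters' processing notes. The deposited tables have the columns of VOILA, the output of MAJIQ, whose version and filters the sources used here do not give. Per the file headers they hold, for each junction or intron of an LSV, the expected share (a fraction) in control and depleted cells, both libraries of a group combined by the authors, a score for the expected change, and the posterior probability of a change of 20 points or more, which is no p-value and has no adjustment for multiple LSVs. Depth is not in the tables.

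Simple retained introns were selected and averaged with Python 3.11.15 and pandas 2.3.3, called at a posterior probability of 0.95 on any LSV, and compared between states as differences of shares, counted from 20 points up. The selection and averaging were tested on simulated data. The replicate numbers in the labels could not be used, and 0 columns of per-sample values were left unused. The text names the 12 introns with the largest called change per state and direction, the 8 per direction that differed most between the states in control cells with the same sign in depleted cells, the 6 with opposite signs whose smaller difference was largest, 3 per gene list by range, and extremes. It does not print all of them, and those printed for genes with several calls, the 18 called in both states or single list calls were chosen after their values were seen. Members, lists and rules were chosen with earlier results of these data known.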

Additional observations from a re-analysis of the deposited data

Results flagged for a closer look

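In 11 of the introns picked by the rules for named introns, retention differed one way with PMA in control cells and the other way in depleted cells, each by 10 points or more. Each figure here is the difference with PMA in depleted cells minus that in control cells, in percentage points, and none was tested. In control cells retention was lower and in depleted cells higher with PMA in the 91-nucleotide intron of NFKB2 (51.1 points), the 114-nucleotide intron of CTD-2303H24.2 (48.1 points), the 76-nucleotide intron of SCNN1D, an epithelial sodium channel subunit (42.0 points), and the 137-nucleotide intron of NDOR1, an electron carrier for iron-sulfur cluster assembly (37.5 points). It was higher in control and lower in depleted cells in the 136-nucleotide intron of SLC25A36, a mitochondrial nucleotide carrier (-53.2 points), and the 28-nucleotide intron of APEX1 (-42.5 points). In SCNN1D retention was 31.1% and 33.3% without PMA in control and depleted cells, and 12.1% and 56.2% with PMA. In NDOR1 it was 33.9% and 41.5%, and 14.9% and 60%. In SLC25A36 it was 42.5% and 55.2%, and 74.6% and 34.1%. In APEX1 it was 73.4% and 85.8%, and 92.6% and 62.5%. In CTD-2303H24.2 it was 94.2% and 63.3%, and 69.7% and 86.9%. In NFKB2, SCNN1D, NDOR1, SLC25A36 and APEX1 the unstimulated groups lay between the PMA-treated ones. The introns of NFKB2, CTD-2303H24.2, SCNN1D, NDOR1, SLC25A36 and APEX1 were chosen among 48 with opposite signs because the smaller of their 2 differences was largest. The other 5, named for depletion or a gene list, were the 149-nucleotide intron of FGFR1OP2 (-69 points), the 148-nucleotide intron of PGPEP1 (-31.7 points), the 35-nucleotide intron of FANCA (-30.9 points), the 138-nucleotide intron of RPL23A (41.8 points) and the 83-nucleotide intron of MAP4K1, a kinase of lymphocyte signalling (26 points).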

How the results depend on the processing

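No paired analysis was possible because each group has 1 value, made from both libraries, and no library can be left out. Leaving out de novo LSVs gave no value, since every LSV used is marked as de novo. Without PMA the 83 calls, 58 higher and 25 lower, became 38 (26 and 12) at a posterior probability of 0.99, 139 (96 and 43) at an expected change of 20 points or more and 360 (261 and 99) at 10 points or more. They were 35 (20 and 15) on target LSVs alone and 49, with 32 higher, where every LSV had to be called. They were 45 (32 and 13) among introns with both LSVs, and 55, with 38 higher, up to 120 nucleotides. Source LSVs alone left 15 lower. With PMA the 162 calls, 115 higher and 47 lower, became 106, with 72 higher, at 0.99, 254, with 85 lower, at 20 points or more, and 619 (433 and 186) at 10 points or more. They were 98 (73 and 25) on source and 86 (60 and 26) on target LSVs alone, 103, with 65 higher, where every LSV had to be called, and 81 (68 and 13) among introns with both LSVs. In each of these counts the higher calls outnumbered the lower ones.

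The 144 introns that differed between the states in control cells became 492 (211 higher and 281 lower with PMA) at 10 points, 51 (18 and 33) at 30 points and 76 (31 and 45) on target LSVs alone. The 118 in depleted cells became 503 (230 and 273), 31 (5 and 26) and 78, with 43 lower. The share of introns at 10% retention or more, in the order unstimulated control, unstimulated depleted, PMA-treated control and PMA-treated depleted, was 25.3%, 28.6%, 25.5% and 29.5% on target LSVs alone, and 35.9%, 38.6%, 36.1% and 40.2% over all introns of each table. Over 60 nucleotides, a limit chosen after seeing the data, it was 29.98%, 33.1%, 29.3% and 34.1%. Both depleted groups stayed above both control groups. Of single introns, the difference between the states all but vanished in KIF2C in depleted cells, from 43.5 points to -0.1 points. This held on target LSVs alone and on the LSVs listed in both tables, the latter also chosen after seeing the data. The 128-nucleotide intron of SEMA4G missed the limit on its source LSV alone, with an expected change of -28.2 points against -32.3 points. The cause was not tested, apart from KIF2C, where the averaged LSVs differed.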
